A study of Mus musculus with 12 samples.

Results

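Genes of the matrix metalloproteinases (MMPs), of the ADAMTS proteases with their ADAMTS-like relatives, and of the tissue inhibitors of metalloproteinases (TIMPs) were followed across 4 stromal cell populations sorted from mouse mammary tumours. Members were the protein-coding genes of the deposited expression table with a symbol that starts with Mmp and a digit, with Adamts, or with Timp and a digit of 1 to 4. This rule gave 50 of 55487 genes, namely 22 MMP genes, 19 ADAMTS genes, 5 ADAMTS-like (Adamtsl) genes and 4 Timp genes. A further symbol that fits the pattern, Mmp1a, is listed as a polymorphic pseudogene and was not counted. The tumours arose in untreated FVB MMTV-PyMT mice aged 10 weeks. Their mammary epithelium expresses a polyoma virus oncogene, middle T, from a mammary tumour virus promoter. Every sorted cell was live, lacked CD45, CD31 and EPCAM, and carried PDGFRb. The vcaf population was Ly6C-negative, CD146-positive and PDGFRa-negative, and the icaf population was Ly6C-positive. The m2cafpos population was Ly6C-negative, CD146-negative, PDGFRa-positive and NCAM-positive, and m2cafneg had the same gate except that it was NCAM-negative. Each population had 1 library from each of 3 mice, numbered 27, 30 and 31, so all contrasts are between populations of the same tumours, and no normal mammary stroma was used here.

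MMPs are zinc proteases that cut collagens, proteoglycans and other matrix and surface proteins, and most are made as inactive precursors that other proteases activate. ADAMTS proteases are secreted relatives with a disintegrin-like domain and thrombospondin repeats, known for trimming procollagens and for cutting hyalectan proteoglycans such as aggrecan and versican, while ADAMTS-like proteins share the repeats but lack the protease domain. TIMPs block MMPs and, for Timp3, also several ADAM and ADAMTS proteases, and in tumours much of this system is made by stromal cells.

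Expression is given as CPM, the reads of a gene in every 1000000 that were counted. The 12 libraries held 43898839 to 55363203 counted reads. Values in a sentence are in the order of mice 27, 30 and 31. Means are given ± SD over the 3 mice. The tests are limma fits of log2(CPM + 1) over the 15456 genes that reached 1 CPM in 3 or more libraries, with p adjusted over these genes. The threshold is 0.05, and the tests measure the spread between the 3 mice. In such bulk libraries, fewer cells of a type and less RNA per cell cannot be told apart. Summed CPM of 11 fibroblast markers was 10610 to 13175 in vcaf, 78846 to 84194 in icaf, 154294 to 163912 in m2cafpos and 79410 to 99531 in m2cafneg, and summed CPM of 12 pericyte and smooth muscle markers was 36724 to 58228 in vcaf and at most 612 in the other populations. The vcaf libraries, labelled as cancer-associated fibroblasts, thus held far more of the pericyte markers than the other populations. All 12 were higher there (53.3% of all genes). Of the 11 fibroblast markers, 10 were lower and 1 was higher in vcaf (14.2% and 53.3% of all genes). Mcam of the pericyte list encodes CD146, and Pdgfra of the fibroblast list encodes PDGFRa. The gates used both proteins, so the directions of these genes in vcaf were set by the sort. Much of the pericyte and fibroblast sums came from single genes. Rgs5 averaged 41419 CPM in vcaf, where the mean pericyte sum was 47556 CPM. Col1a1 averaged 6882 CPM there, where the mean fibroblast sum was 12267 CPM. In m2cafpos Col1a1 averaged 101468 CPM, where the mean fibroblast sum was 159294 CPM. Of the fibroblast list only Col1a1, Col1a2 and Postn had their highest mean in m2cafpos, and Thy1 had its highest mean in vcaf. Although EPCAM-positive and CD45-positive cells were gated out, summed CPM of 18 epithelial markers was 8774 to 18652 in vcaf, 1157 to 3356 in icaf, 771 to 3410 in m2cafpos and 6400 to 14110 in m2cafneg. The sum of 16 macrophage markers was likewise 590 to 1385 in vcaf, 100.2 to 225 in icaf, 160.2 to 244 in m2cafpos and 632 to 1022 in m2cafneg. Most of this sum was Cd14, which averaged 750 CPM in vcaf and 504 CPM in m2cafneg, where the mean sums were 1096 and 804 CPM. Of the 15 macrophage markers tested, 14 were higher and 0 lower in vcaf than in the mean of the others (53.3% and 14.2% of all genes).

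Of the 50 members, 43 passed the filter on low values, and 35 had a mean of at least 10 CPM in at least 1 population. In vcaf, set against the other 3 populations on average, 10 members were higher, 27 were lower and 6 did not pass, where 53.3% of all genes tested were higher and 14.2% lower. The median log2 fold change was -0.88 over the 43 members and 0.38 over all genes tested. In icaf against the mean of the m2caf populations, 8 members were higher and 18 lower (12.1% and 14.2% of all genes), with a median of -0.53 for the members and -0.01 for all genes. In m2cafpos against m2cafneg, 12 members were higher and 3 lower (3.51% and 22.6% of all genes), with a median of 0.29 for the members and -0.23 for all genes. Leaving out m2cafpos of mouse 27, 30 or 31 or m2cafneg of mouse 31 lowered the 12 to 6 or 7, and the 3 became 6 without m2cafneg of mouse 31 and 7 with the mouse as a block. Between single populations, 10 members were higher and 20 lower in vcaf than in icaf (46.1% and 13.9% of all genes). Against m2cafpos, 8 were higher and 28 lower in vcaf (55.5% and 12.4%), and against m2cafneg 10 and 27 (26.6% and 11.3%). Against m2cafpos, icaf had 8 members higher and 19 lower (15.0% and 8.86%), and against m2cafneg 10 and 15 (8.77% and 20.9%). A member that passed the filter only through the population where it is high had to differ, so these counts describe the members and are not a test of them. In each of the 78 calls of the 3 main comparisons the difference had the same direction within all 3 mice. The calls were made on these same mice, so this agreement is not separate evidence for them.

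The deposited values are scaled by total reads only. With median-of-ratios scaling, the median of all genes shifted by -0.36 in vcaf against the others, by 0.25 in m2cafpos against m2cafneg and by less than 0.01 in icaf against the m2caf populations, on the log2 scale. The split of all genes was then 3648 higher and 3797 lower in vcaf, against 8238 and 2193 without this scaling, and 1359 higher and 1281 lower in m2cafpos, against 542 and 3499. The split of the members was 8 higher and 29 lower in vcaf, 8 and 18 in icaf, and 16 and 2 in m2cafpos. With edgeR on the recovered reads it was 13 and 1 in m2cafpos. No called member changed direction in any alternative, and 58 of the 78 calls passed in every alternative that was run.

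**Figure D1:**
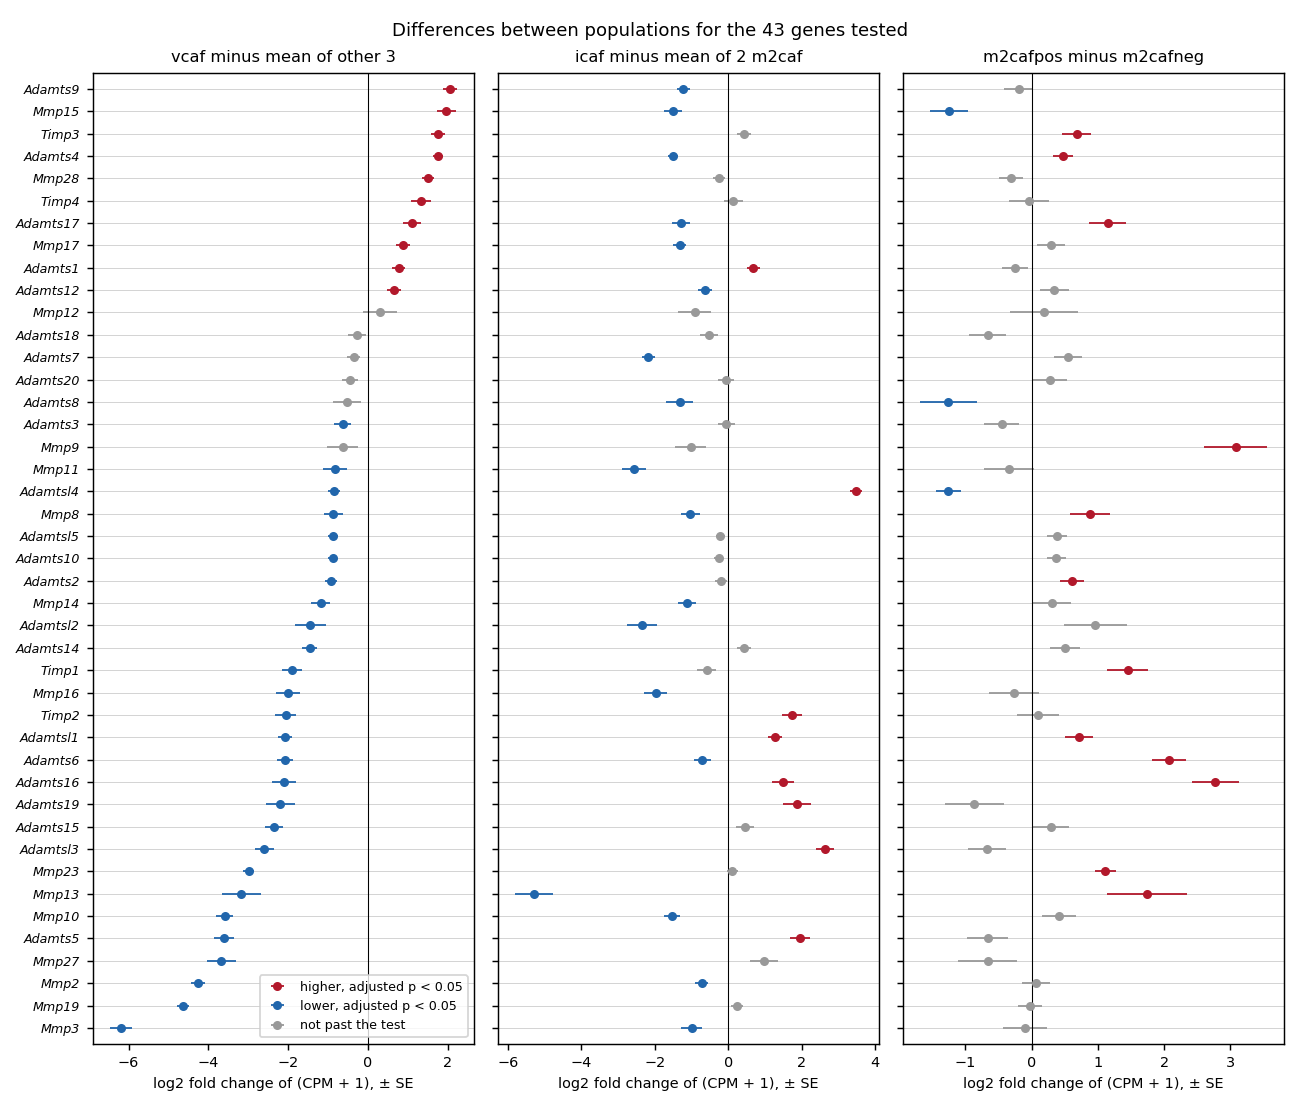
Log2 fold changes of CPM + 1 with their standard errors (horizontal axis) for the 43 genes tested (rows), in vcaf minus the average of the others, icaf minus the mean of the 2 m2caf populations, and m2cafpos minus m2cafneg. Red points were higher and blue points lower past an adjusted p of 0.05; Mmp3, Mmp19 and Mmp2 lie farthest left in vcaf, Adamtsl4 farthest right and Mmp13 farthest left in icaf, and Mmp9 and Adamts16 farthest right in m2cafpos.

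The gelatinases showed unlike patterns. Mmp2, which encodes gelatinase A and cuts denatured collagen and basement membrane collagen, was the most abundant member per kilobase of exon outside vcaf. It had 155, 237 and 163 CPM in vcaf and 2117, 2799 and 2671 CPM in icaf. Mmp2 had 3969, 3990.3 and 4811 CPM in m2cafpos and 3602, 5431 and 3447 CPM in m2cafneg. The vcaf libraries lay far below all others (log2 fold change -4.27 ± 0.17 (SE), limma adjusted p = 1.35e-09), and both m2caf populations lay at overlapping levels. Against these, icaf was lower (log2 fold change -0.73 ± 0.18 (SE), limma adjusted p = 0.0112), a call that ended without icaf of mouse 27 (limma adjusted p = 0.0698). Mmp9 encodes gelatinase B, which neutrophils and macrophages also make. It had 0.320, 3.46 and 2.21 CPM in vcaf and 4.12, 1.04 and 0.634 CPM in icaf. Mmp9 had 16.5, 14.7 and 11.98 CPM in m2cafpos and 0.805, 0.270 and 1.58 CPM in m2cafneg. All 3 m2cafpos libraries lay above the 9 others, and m2cafpos was higher than m2cafneg (log2 fold change 3.08 ± 0.47 (SE), limma adjusted p = 0.00196), than icaf (limma adjusted p = 0.00171) and than vcaf (limma adjusted p = 0.000574). In the same libraries the summed CPM of 11 neutrophil markers, 8 of them under 1 CPM in every library, was 6.73 to 24.4 in vcaf, 1.5 to 1.83 in icaf, 3.596 to 4.65 in m2cafpos and 4.50 to 10.9 in m2cafneg. Of the 3 neutrophil markers that passed the filter, Mpo was also higher in m2cafpos than in m2cafneg. It averaged 1.80 ± 0.221 CPM in m2cafpos and 0.997 ± 0.240 CPM in m2cafneg, without overlap (log2 fold change 0.49 ± 0.16 (SE), limma adjusted p = 0.0423). Mpo averaged 0.643 CPM in icaf and 0.133 CPM in vcaf, both below m2cafneg. Mmp9 averaged 0.884 CPM in m2cafneg, 1.93 CPM in icaf and 2.00 CPM in vcaf. For Mmp9, icaf did not differ past the test from m2cafneg or from vcaf (limma adjusted p = 0.452 and 0.936). S100a8, at 1.34 ± 0.729 CPM in m2cafpos and 4.29 ± 2.05 CPM in m2cafneg, and Csf3r, at 0.581 ± 0.0937 CPM in m2cafpos and 1.21 ± 0.771 CPM in m2cafneg, did not pass (limma adjusted p = 0.0614 and 0.25). The part of neutrophil RNA in Mmp9 was not tested.

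Mmp3 and Mmp10, of the stromelysins, were far lower in vcaf than elsewhere. Mmp3 encodes stromelysin 1, which cuts proteoglycans and fibronectin and activates other MMPs. Its values were 22.9, 9.04 and 24.95 CPM in vcaf and 869.6, 568 and 1231 CPM in icaf. Mmp3 had 1366, 1815 and 1787 CPM in m2cafpos and 1648, 1968 and 1663 CPM in m2cafneg. In vcaf it was lower than in the other populations (log2 fold change -6.19 ± 0.27 (SE), limma adjusted p = 2.69e-09), and no vcaf library came near the others. It was also lower in icaf than in the m2caf populations (log2 fold change -1.001 ± 0.29 (SE), limma adjusted p = 0.0223), but this call ended without icaf of mouse 27 or 30 (limma adjusted p = 0.0679 to 0.133) and with no filter on low values (adjusted p = 0.0785). Mmp10, which encodes stromelysin 2, had 0.200, 0.0185 and 0.176 CPM in vcaf and 6.53, 3.48 and 7.78 CPM in icaf. Mmp10 had 20.2, 17.6 and 27.6 CPM in m2cafpos and 19.0, 13.5 and 15.5 CPM in m2cafneg. The vcaf values stand for 1 to 10 reads a library. Mmp10 was lower in vcaf (log2 fold change -3.59 ± 0.21 (SE), limma adjusted p = 2.53e-08) and lower in icaf than in the m2caf populations (log2 fold change -1.54 ± 0.22 (SE), limma adjusted p = 0.00023), whose values overlapped.

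Mmp11 encodes stromelysin 3, which furin activates inside the cell and which is known from fibroblasts around invasive carcinomas. It had 255, 355 and 177 CPM in vcaf and 94.1, 136 and 201 CPM in icaf. Mmp11 had 648, 851 and 690.2 CPM in m2cafpos and 624, 1743 and 715 CPM in m2cafneg. The m2cafneg library of mouse 30 was more than 2 times as high as any other library. Mmp11 was lower in icaf than in the m2caf populations (log2 fold change -2.57 ± 0.32 (SE), limma adjusted p = 9.87e-05), and m2cafpos and m2cafneg did not differ past the test (-0.34 ± 0.37 on the log2 scale, limma adjusted p = 0.527). It was also lower in vcaf than in the mean of the others (log2 fold change -0.83 ± 0.31 (SE), limma adjusted p = 0.0286), a call that ended without vcaf of mouse 27 or 31 (limma adjusted p = 0.0732 to 0.166) and with no filter on low values (adjusted p = 0.084). On the opposite strand Mmp11 shares 155 exon bases with Chchd10, and the handling of strand is not given in the sources used here. Mmp28, epilysin, another furin-activated MMP, averaged 2.65 ± 0.683 CPM in vcaf, 0.129 ± 0.0850 CPM in icaf, 0.215 ± 0.0929 CPM in m2cafpos, and 0.522 ± 0.274 CPM in m2cafneg and was higher in vcaf (log2 fold change 1.502 ± 0.15 (SE), limma adjusted p = 4.39e-06).

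Of the collagenases, Mmp13 separated both m2caf populations from icaf and vcaf. It encodes collagenase 3, the main collagenase of fibrillar collagen in the mouse. Mmp13 had 0.981, 6.67 and 2.37 CPM in vcaf and 1.65, 0.373 and 5.70 CPM in icaf. Mmp13 had 173, 180.0 and 283 CPM in m2cafpos and 103, 30.8 and 71.5 CPM in m2cafneg. The 6 m2caf libraries lay above the 6 others, and Mmp13 was lower in icaf (log2 fold change -5.29 ± 0.52 (SE), limma adjusted p = 1.41e-05) and in vcaf than in the mean of the others (log2 fold change -3.17 ± 0.49 (SE), limma adjusted p = 0.000148). No m2cafneg library reached the lowest m2cafpos library, but the difference of m2cafpos and m2cafneg sat at the threshold (log2 fold change 1.74 ± 0.60 (SE), limma adjusted p = 0.0496) and ended without vcaf of mouse 31, icaf of mouse 27, m2cafpos of mouse 27, 30 or 31 or m2cafneg of mouse 30 or 31 (limma adjusted p = 0.06 to 0.162) and with a pseudocount of 0.1 CPM, no filter on low values, the edgeR test and the DESeq2 test (adjusted p = 0.115 to 0.151). Mmp8, neutrophil collagenase, stayed low, with means of 0.0773 ± 0.0902 CPM in vcaf, 0.222 ± 0.185 CPM in icaf, 2.43 ± 0.784 CPM in m2cafpos, and 0.970 ± 0.811 CPM in m2cafneg. Mmp8 was lower in vcaf (log2 fold change -0.87 ± 0.24 (SE), limma adjusted p = 0.00719) and in icaf (log2 fold change -1.04 ± 0.26 (SE), limma adjusted p = 0.0102), and the icaf call ended without icaf of mouse 27 or 30 (limma adjusted p = 0.0508 to 0.0519) and with the edgeR test (adjusted p = 0.0529). The higher level in m2cafpos than in m2cafneg (log2 fold change 0.88 ± 0.30 (SE), limma adjusted p = 0.0452) ended without vcaf of mouse 27, 30 or 31, icaf of mouse 27, 30 or 31, m2cafpos of mouse 27, 30 or 31 or m2cafneg of mouse 30 (limma adjusted p = 0.0514 to 0.148) and with a pseudocount of 0.1 CPM, no filter on low values, the edgeR test and the DESeq2 test (adjusted p = 0.118 to 0.275). Mmp1b, an interstitial collagenase gene of rodents, was at 0 except in m2cafpos, where its highest value was 0.0911 CPM.

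**Figure D2:**
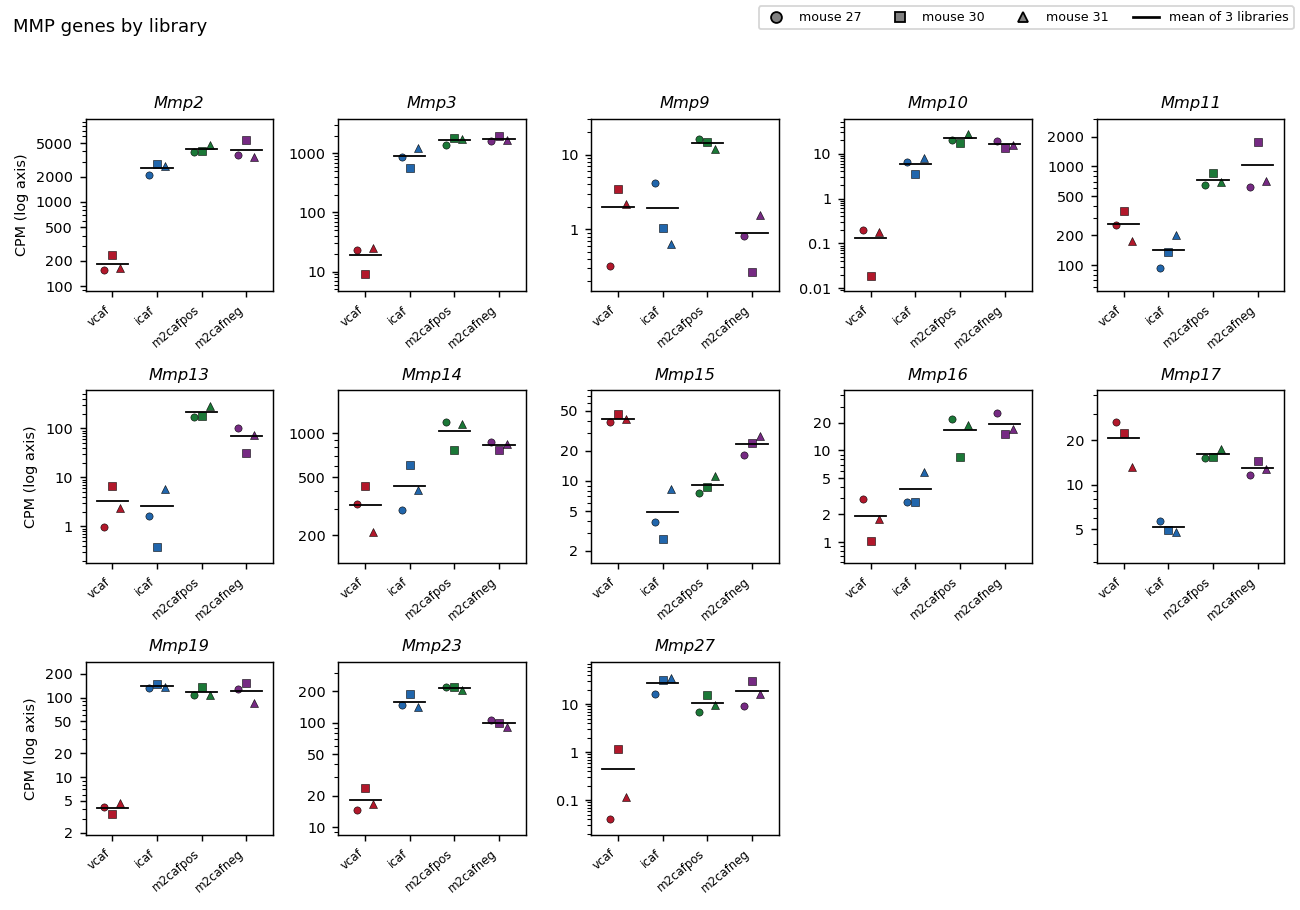
CPM on a log axis (vertical) in each of the 12 libraries for the 13 MMP genes with a mean of at least 10 CPM in a population, with vcaf, icaf, m2cafpos and m2cafneg from left to right; symbols mark the mouse and lines the mean of 3 libraries. Mmp2, Mmp3, Mmp10, Mmp19, Mmp23 and Mmp27 were lowest in vcaf, while Mmp9 and Mmp13 were highest in m2cafpos.

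Mmp3, Mmp8, Mmp10 and Mmp13 are part of a run of 9 members within 427 kb of mouse chromosome 9, which also holds Mmp12, Mmp1b, Mmp27, Mmp20 and Mmp7 (GENCODE M21 on GRCm38, chr9:7272514-7699585). Neighbours in it differed in the order of their means. Mmp8 and Mmp27 lie 2911 bases apart, and Mmp8 had its highest mean in m2cafpos whereas Mmp27 had its highest mean in icaf. For Mmp27, icaf did not differ from m2cafneg past the test in the main fit (limma adjusted p = 0.302). The highest mean of Mmp8 was only 2.43 CPM, and many of the alternatives given above ended its m2cafpos call. Mmp20 (enamelysin, of tooth enamel) and Mmp7 (matrilysin, an epithelial MMP) at the end of the run reached no more than 0.0361 and 0.247 CPM in any library.

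**Figure D3:**
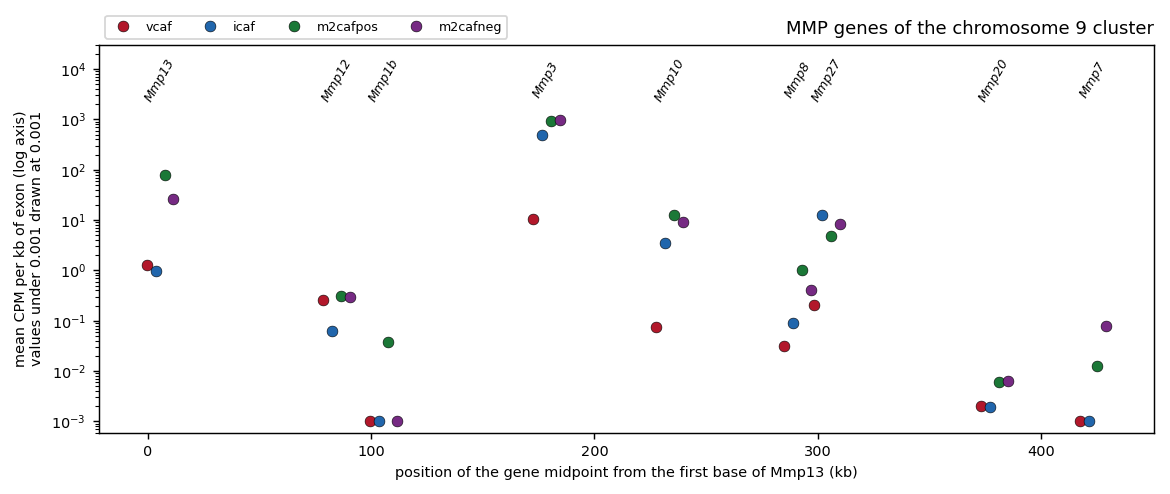
Mean CPM per kilobase of exon on a log axis (vertical) of the 9 members in the run on chromosome 9, against the distance of the gene midpoint from the first base of Mmp13 in kb (horizontal), with 1 point for each population, set side by side around the midpoint; values under 0.001 are drawn at 0.001. Mmp3 is the most abundant gene of the run in each population, and Mmp13, Mmp10 and Mmp8 have their highest points in m2cafpos, whereas Mmp27 has its highest point in icaf.

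The sequence before the transcription start of 6 genes of the run is shown because these neighbours differ in level by population and in whether they hold an AP-1 motif, the element through which Fos and Jun proteins are known to act on MMP promoters in cultured cells. Promoter windows of 300 bases (250 before and 50 after the start, RefSeq on GRCm38.p6) were at hand for 35 of 50 members. The AP-1 motif searched was TGANTCA, which reads the same on both strands, and 7.81% of the 32851 windows of all genes hold it, or 8.97% of 27025 genes in at least 1 window. Among the 35 members it was found in 7, all 7 in the run on chromosome 9, and in 0 of the 26 members elsewhere. The motif TATAAA, searched on both strands, is in 13.6% of all windows (15.7% of genes), in 8 of the 9 members of the run and in 3 of the 26 others. Each line gives the 150 bases before the start, plus strand, 5′ to 3′, with both motifs in capitals. A match is a description of the letters and not evidence of a site in use.
Mmp3 (chr9:7445672-7445821): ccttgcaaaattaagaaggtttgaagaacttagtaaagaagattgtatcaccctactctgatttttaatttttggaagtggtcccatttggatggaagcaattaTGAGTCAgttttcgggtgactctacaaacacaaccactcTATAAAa
Mmp10 (chr9:7502192-7502341): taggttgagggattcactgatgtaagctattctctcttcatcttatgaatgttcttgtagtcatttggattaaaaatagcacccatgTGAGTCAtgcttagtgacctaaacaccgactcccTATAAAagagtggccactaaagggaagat
Mmp13 (chr9:7272364-7272513): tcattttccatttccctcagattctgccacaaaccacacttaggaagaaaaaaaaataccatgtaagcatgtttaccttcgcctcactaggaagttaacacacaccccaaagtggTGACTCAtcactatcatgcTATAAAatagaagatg
Mmp12, second start (chr9:7347224-7347373): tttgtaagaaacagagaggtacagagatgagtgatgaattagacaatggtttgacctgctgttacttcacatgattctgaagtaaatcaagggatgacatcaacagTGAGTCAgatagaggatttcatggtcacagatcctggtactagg
Mmp8 (chr9:7558279-7558428): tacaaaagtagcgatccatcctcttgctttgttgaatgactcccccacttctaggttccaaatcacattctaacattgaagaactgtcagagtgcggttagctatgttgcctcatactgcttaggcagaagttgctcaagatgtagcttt
Mmp27 (chr9:7571246-7571395): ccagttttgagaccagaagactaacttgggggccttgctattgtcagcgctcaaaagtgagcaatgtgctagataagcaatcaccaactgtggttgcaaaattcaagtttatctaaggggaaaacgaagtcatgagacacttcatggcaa
In these letters the AP-1 motif begins 46 bases before the start of Mmp3, 63 before that of Mmp10, 35 before that of Mmp13 and 44 before the second of 2 listed starts of Mmp12. The window of the first start of Mmp12, not printed, holds no TGANTCA. The windows of Mmp8 and Mmp27 hold no TGANTCA, and the 150 bases shown for these and for Mmp12 hold no TATAAA. Genes with the motif in at least 1 window had unlike levels: Mmp3 averaged 1656 ± 252 CPM and Mmp12 2.21 ± 1.51 CPM in m2cafpos (SD, n = 3). Mmp1b, Mmp7 and Mmp20, which also hold it and are not printed, reached at most 0.0911, 0.247 and 0.0361 CPM in any library. Mmp27, without it, averaged 27.8 ± 10.1 CPM in icaf.

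The membrane-bound MMPs split between populations. Mmp14 encodes MT1-MMP, a transmembrane collagenase that activates pro-MMP2 together with Timp2. Its values were 327, 433 and 209.9 CPM in vcaf and 298, 606 and 405 CPM in icaf. Mmp14 had 1201, 772 and 1152 CPM in m2cafpos and 865, 771 and 845 CPM in m2cafneg. The vcaf and icaf libraries overlapped, and all 6 lay below the 6 m2caf libraries. Mmp14 was lower in vcaf (log2 fold change -1.19 ± 0.23 (SE), limma adjusted p = 0.000728) and in icaf (log2 fold change -1.13 ± 0.24 (SE), limma adjusted p = 0.00437). Mmp23, a type II membrane MMP released by furin, had 14.6, 23.8 and 16.6 CPM in vcaf and 149, 187 and 140.3 CPM in icaf. Mmp23 had 221, 219 and 204 CPM in m2cafpos and 106, 100.3 and 90.8 CPM in m2cafneg. Mmp23 was lower in vcaf (log2 fold change -2.99 ± 0.13 (SE), limma adjusted p = 2.54e-09) and was higher in m2cafpos than in m2cafneg without overlap (log2 fold change 1.11 ± 0.16 (SE), limma adjusted p = 0.00142). Mmp16 (MT3-MMP) had 2.98, 1.04 and 1.78 CPM in vcaf and 2.75, 2.73 and 5.78 CPM in icaf. Mmp16 had 22.3, 8.38 and 19.2 CPM in m2cafpos and 25.7, 14.96 and 17.0 CPM in m2cafneg, with the m2caf libraries above all others. It was lower in vcaf (-2.01 ± 0.30 on the log2 scale, limma adjusted p = 0.000128) and in icaf (-1.98 ± 0.32, limma adjusted p = 0.000661).

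Mmp15 and Mmp17 ran the other way. Mmp15 (MT2-MMP) had 38.4, 46.2 and 41.1 CPM in vcaf and 3.93, 2.61 and 8.26 CPM in icaf. Mmp15 had 7.59, 8.60 and 11.3 CPM in m2cafpos and 17.98, 23.8 and 28.1 CPM in m2cafneg. No 2 populations overlapped except icaf and m2cafpos, and Mmp15 was higher in vcaf (log2 fold change 1.97 ± 0.24 (SE), limma adjusted p = 2.02e-05), lower in icaf (log2 fold change -1.498 ± 0.25 (SE), limma adjusted p = 0.00078) and lower in m2cafpos than in m2cafneg (log2 fold change -1.25 ± 0.29 (SE), limma adjusted p = 0.00985). This last call ended with the edgeR test (adjusted p = 0.0543). Across populations Mmp15 moved with the epithelial marker sum given above, which was highest in vcaf and next in m2cafneg, and the part of epithelial RNA in it was not tested. Mmp17, a GPI-anchored MMP, had 26.4, 22.3 and 13.2 CPM in vcaf and 5.70, 4.93 and 4.83 CPM in icaf. Mmp17 had 15.1, 15.5 and 17.4 CPM in m2cafpos and 11.7, 14.4 and 12.8 CPM in m2cafneg. The icaf libraries lay below all others, and Mmp17 was lower in icaf (log2 fold change -1.32 ± 0.18 (SE), limma adjusted p = 0.000182) and higher in vcaf than in the mean of the others (log2 fold change 0.88 ± 0.17 (SE), limma adjusted p = 0.000739), though the vcaf libraries overlapped those of m2cafpos and m2cafneg. Mmp24 and Mmp25, the other membrane MMPs, reached at most 0.145 and 0.804 CPM.

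Of the remaining secreted MMPs, Mmp19 and Mmp27 were lowest in vcaf, and Mmp12 and Mmp21 were at low levels in all populations. Mmp19, which cuts basement membrane proteins, had 4.18, 3.40 and 4.68 CPM in vcaf and 132, 149.9 and 135 CPM in icaf. Mmp19 had 109, 135 and 108 CPM in m2cafpos and 128, 154 and 85.9 CPM in m2cafneg. The vcaf libraries were apart from all others (log2 fold change -4.63 ± 0.15 (SE), limma adjusted p = 2.29e-10), and the other 3 populations overlapped. On the opposite strand Mmp19 shares 789 of its 3533 exon bases with Tmem198b, whose highest value was 37.7 CPM. Mmp27 had 0.0400, 1.18 and 0.118 CPM in vcaf and 16.4, 31.6 and 35.5 CPM in icaf. Mmp27 had 6.74, 15.6 and 9.54 CPM in m2cafpos and 9.10, 30.3 and 16.1 CPM in m2cafneg. Mmp27 was lower in vcaf (log2 fold change -3.68 ± 0.36 (SE), limma adjusted p = 3.51e-06). Its icaf and m2caf libraries overlapped, and icaf against the m2caf populations did not pass (log2 fold change 0.98 ± 0.38 (SE), limma adjusted p = 0.0788). Within mice it did, since icaf was higher than the mean of the m2caf populations in each, and with the mouse as a block the adjusted p of limma was 0.00191. With the same block m2cafpos was lower than m2cafneg (adjusted p = 0.0360, against 0.285 without it). Mmp12, macrophage elastase, averaged 1.83 ± 0.962 CPM in vcaf, 0.462 ± 0.131 CPM in icaf, 2.21 ± 1.51 CPM in m2cafpos, and 2.10 ± 1.92 CPM in m2cafneg and passed no main comparison, while the macrophage marker sum was higher in vcaf and m2cafneg, and its part in the values was not tested. Mmp21 reached at most 0.380 CPM.

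The hyalectanase group of ADAMTS proteases, which cut aggrecan and versican, held members of unlike patterns. Adamts1 had 473, 558 and 483 CPM in vcaf and 471, 447 and 312 CPM in icaf. Adamts1 had 249, 261 and 189 CPM in m2cafpos and 299.98, 331 and 208 CPM in m2cafneg. The vcaf libraries were the 3 highest, and icaf and m2cafneg overlapped. Adamts1 was higher in vcaf (log2 fold change 0.77 ± 0.16 (SE), limma adjusted p = 0.00122), but this call ended with median-of-ratios scaling, the edgeR test and the DESeq2 test (adjusted p = 0.114 to 0.128). It was higher in icaf than in the m2caf populations (log2 fold change 0.68 ± 0.17 (SE), limma adjusted p = 0.0111), and that call ended without icaf of mouse 27 or 30 (limma adjusted p = 0.0613 to 0.07). Adamts4, aggrecanase 1, had 445, 428 and 325 CPM in vcaf and 68.3, 45.7 and 60.9 CPM in icaf. Adamts4 had 219.7, 182 and 183 CPM in m2cafpos and 140.2, 147 and 133 CPM in m2cafneg. The 4 populations did not overlap, with vcaf on top (log2 fold change 1.76 ± 0.13 (SE), limma adjusted p = 2.12e-07) and icaf at the bottom (log2 fold change -1.503 ± 0.13 (SE), limma adjusted p = 7.17e-06). The step of m2cafpos over m2cafneg (log2 fold change 0.47 ± 0.16 (SE), limma adjusted p = 0.0425) ended without icaf of mouse 31, m2cafpos of mouse 27, 30 or 31 or m2cafneg of mouse 27, 30 or 31 (limma adjusted p = 0.0511 to 0.152) and with no filter on low values (adjusted p = 0.114). Adamts5, aggrecanase 2, had 15.7, 22.3 and 10.7 CPM in vcaf and 537, 512 and 448 CPM in icaf. Adamts5 had 107, 115 and 83.8 CPM in m2cafpos and 171, 256 and 94.3 CPM in m2cafneg. The icaf libraries were the 3 highest and the vcaf libraries the 3 lowest. Adamts5 was lower in vcaf (log2 fold change -3.61 ± 0.25 (SE), limma adjusted p = 1.66e-07) and higher in icaf (log2 fold change 1.96 ± 0.27 (SE), limma adjusted p = 0.000181). Its difference between m2cafpos and m2cafneg did not pass (adjusted p = 0.133) but did with the mouse as a block, where m2cafpos was lower (limma adjusted p = 0.0156). Adamts1 and Adamts5 are neighbours on chromosome 16, 53060 bases apart, with opposite positions of vcaf.

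Adamts9, a versican-cutting protease, was at low levels and had 14.9, 13.5 and 8.996 CPM in vcaf and 0.703, 0.668 and 1.07 CPM in icaf. Adamts9 had 3.14, 2.52 and 3.17 CPM in m2cafpos and 2.79, 3.44 and 4.46 CPM in m2cafneg. The vcaf libraries were above all others (log2 fold change 2.06 ± 0.17 (SE), limma adjusted p = 9.18e-07), and the icaf libraries below all others (log2 fold change -1.22 ± 0.18 (SE), limma adjusted p = 0.000357). Summed CPM of 12 endothelial markers was 342 to 486 in vcaf, 144 to 254 in icaf, 41.1 to 83.2 in m2cafpos and 94.8 to 342 in m2cafneg. Its mean was thus highest in vcaf, where Adamts4 and Adamts9 were highest, but next highest in icaf, where both were lowest. In icaf Tek alone averaged 165 CPM, where the mean sum was 213 CPM. The pericyte marker sum given above was also highest in vcaf. The part of endothelial RNA in Adamts4 and Adamts9 was not tested. Adamts15 had 25.4, 31.8 and 24.2 CPM in vcaf and 161, 175 and 188 CPM in icaf. Adamts15 had 90.1, 185 and 169.7 CPM in m2cafpos and 77.7, 167 and 119 CPM in m2cafneg. Adamts15 was lower in vcaf (log2 fold change -2.35 ± 0.23 (SE), limma adjusted p = 3.18e-06), and the other populations overlapped. Adamts8 had 14.3, 15.3 and 9.66 CPM in vcaf and 17.2, 4.80 and 11.1 CPM in icaf. Adamts8 had 20.2, 11.1 and 20.2 CPM in m2cafpos and 63.3, 48.3 and 22.4 CPM in m2cafneg. The m2cafneg libraries were the 3 highest of the 12, and this gene alone was higher in m2cafneg than in each other population. The call of m2cafpos against m2cafneg (log2 fold change -1.26 ± 0.43 (SE), limma adjusted p = 0.0482) ended without vcaf of mouse 27, 30 or 31, icaf of mouse 31, m2cafpos of mouse 27, 30 or 31 or m2cafneg of mouse 27 or 30 (limma adjusted p = 0.0523 to 0.157) and with a pseudocount of 0.1 CPM, no filter on low values, median-of-ratios scaling, the edgeR test and the DESeq2 test (adjusted p = 0.0564 to 0.146). The call of icaf against the m2caf populations (log2 fold change -1.32 ± 0.37 (SE), limma adjusted p = 0.0199) ended without icaf of mouse 30 (limma adjusted p = 0.123) and with no filter on low values (adjusted p = 0.0708). Adamts8 and Adamts15 lie 20110 bases apart on chromosome 9. Adamts20 averaged 0.311 ± 0.213 CPM in vcaf, 0.750 ± 0.299 CPM in icaf, 1.02 ± 0.487 CPM in m2cafpos, and 0.683 ± 0.495 CPM in m2cafneg and passed no main comparison.

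**Figure D4:**
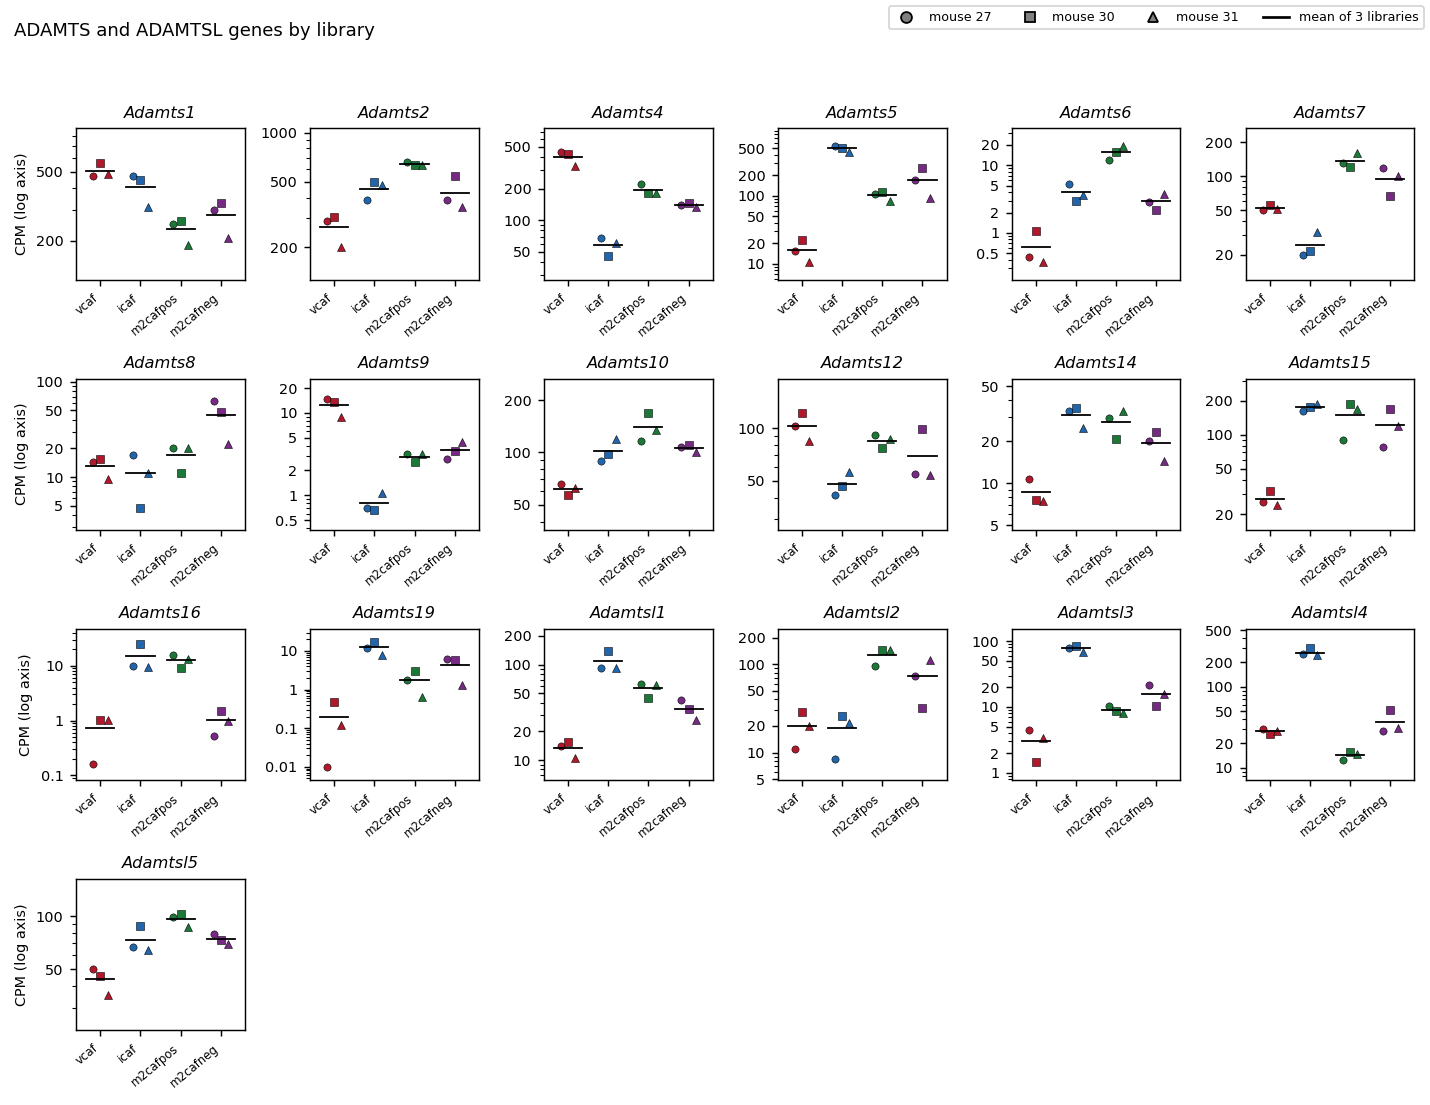
CPM on a log axis (vertical) in each of the 12 libraries for the 19 ADAMTS and ADAMTSL genes with a mean of at least 10 CPM in a population, with vcaf, icaf, m2cafpos and m2cafneg from left to right; symbols mark the mouse, lines the mean of 3 libraries, and a library at 0 is drawn at 0.01 CPM. Adamts4 and Adamts9 are highest in vcaf, Adamts5, Adamts19, Adamtsl1, Adamtsl3 and Adamtsl4 in icaf, and Adamts6 in m2cafpos.

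The procollagen N-proteinases remove the amino propeptide of fibrillar procollagens. Adamts2 had 287.2, 304 and 202 CPM in vcaf and 386, 497 and 476 CPM in icaf. Adamts2 had 665, 631 and 632 CPM in m2cafpos and 387, 544 and 353 CPM in m2cafneg. It was lower in vcaf (log2 fold change -0.93 ± 0.15 (SE), limma adjusted p = 0.000198). The m2cafpos libraries were the 3 highest, and m2cafpos was higher than m2cafneg (log2 fold change 0.61 ± 0.18 (SE), limma adjusted p = 0.0286), a call that ended without m2cafpos of mouse 27, 30 or 31 or m2cafneg of mouse 27 or 31 (limma adjusted p = 0.0619 to 0.11) and with no filter on low values (adjusted p = 0.0857). Adamts14 had 10.8, 7.58 and 7.51 CPM in vcaf and 33.3, 34.99 and 25.01 CPM in icaf. Adamts14 had 29.3, 20.7 and 33.3 CPM in m2cafpos and 20.1, 23.5 and 14.5 CPM in m2cafneg. Adamts14 was lower in vcaf without overlap (log2 fold change -1.46 ± 0.18 (SE), limma adjusted p = 2.74e-05). Adamts3 averaged 1.25 ± 0.417 CPM in vcaf, 2.38 ± 0.292 CPM in icaf, 2.02 ± 0.580 CPM in m2cafpos, and 3.28 ± 1.51 CPM in m2cafneg and was lower in vcaf (log2 fold change -0.64 ± 0.21 (SE), limma adjusted p = 0.019), which ended without vcaf of mouse 30 (limma adjusted p = 0.11) and with no filter on low values (adjusted p = 0.0602).

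Adamts7 and Adamts12 are known to cut cartilage oligomeric matrix protein. Adamts7 had 49.7, 55.7 and 51.2 CPM in vcaf and 20.0, 21.6 and 31.6 CPM in icaf. Adamts7 had 130.03, 119.9 and 160.0 CPM in m2cafpos and 118, 66.6 and 99.8 CPM in m2cafneg. The icaf libraries were the 3 lowest (log2 fold change -2.18 ± 0.18 (SE), limma adjusted p = 3.97e-06). In the main fit the vcaf comparison did not pass (log2 fold change -0.36 ± 0.17 (SE), limma adjusted p = 0.0767). With the mouse as a block it did, vcaf being lower (limma adjusted p = 0.0430). It also passed, in the same direction, with median-of-ratios scaling (limma adjusted p = 0.00248), the edgeR test (adjusted p = 0.00445) and the DESeq2 test (adjusted p = 0.000112). Between the m2caf populations, m2cafpos was higher with the block (limma adjusted p = 0.0343, against 0.0699 without). Adamts7 shares 122 exon bases on the opposite strand with Tbc1d2b. Adamts12 had 104, 122 and 84.0 CPM in vcaf and 41.4, 46.4 and 56.4 CPM in icaf. Adamts12 had 91.1, 76.6 and 86.7 CPM in m2cafpos and 54.6, 99.5 and 54.1 CPM in m2cafneg. The vcaf libraries overlapped those of both m2caf populations. Adamts12 was higher in vcaf (log2 fold change 0.65 ± 0.18 (SE), limma adjusted p = 0.00622), which ended with median-of-ratios scaling, the edgeR test and the DESeq2 test (adjusted p = 0.316 to 0.377), and lower in icaf than in the m2caf populations (log2 fold change -0.64 ± 0.19 (SE), limma adjusted p = 0.0242), which ended without icaf of mouse 27 or 30 (limma adjusted p = 0.0849 to 0.121) and with no filter on low values (adjusted p = 0.0769).

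Adamts6 and Adamts10 act on fibrillin microfibrils. Adamts6 had 0.440, 1.07 and 0.372 CPM in vcaf and 5.36, 2.95 and 3.64 CPM in icaf. Adamts6 had 11.8, 15.8 and 19.1 CPM in m2cafpos and 2.90, 2.16 and 3.76 CPM in m2cafneg. All m2cafpos libraries were above all others, and Adamts6 was higher in m2cafpos than in m2cafneg (log2 fold change 2.07 ± 0.25 (SE), limma adjusted p = 0.00068) and lower in vcaf than in the mean of the others (log2 fold change -2.08 ± 0.21 (SE), limma adjusted p = 4.02e-06). In icaf it was lower than in the m2caf populations (log2 fold change -0.70 ± 0.22 (SE), limma adjusted p = 0.0323), but icaf and m2cafneg overlapped and the call ended without icaf of mouse 30 or 31, m2cafpos of mouse 30 or 31 or m2cafneg of mouse 31 (limma adjusted p = 0.0524 to 0.161) and with a pseudocount of 0.1 CPM, no filter on low values, the edgeR test and the DESeq2 test (adjusted p = 0.0603 to 0.11). Adamts10 had 65.8, 57.0 and 62.3 CPM in vcaf and 89.2, 97.5 and 119.7 CPM in icaf. Adamts10 had 116, 168 and 135 CPM in m2cafpos and 108, 111 and 101 CPM in m2cafneg. It was lower in vcaf than in the others (log2 fold change -0.88 ± 0.11 (SE), limma adjusted p = 4.05e-05), and icaf overlapped both m2caf populations.

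Adamts16 was found in both icaf and m2cafpos, with 0.160, 1.04 and 1.02 CPM in vcaf, 9.99, 24.6 and 9.66 CPM in icaf, 15.4, 9.16 and 13.4 CPM in m2cafpos, and 0.522, 1.51 and 0.988 CPM in m2cafneg. The m2cafneg and vcaf libraries all lay at or below 1.51 CPM. Adamts16 was higher in m2cafpos than in m2cafneg (log2 fold change 2.77 ± 0.35 (SE), limma adjusted p = 0.000922), and icaf did not differ from m2cafpos past the test (limma adjusted p = 0.874). Adamts16 was lower in vcaf (log2 fold change -2.10 ± 0.29 (SE), limma adjusted p = 6.26e-05) and higher in icaf than in the mean of the m2caf populations (log2 fold change 1.49 ± 0.31 (SE), limma adjusted p = 0.00332). Adamts19 had 0, 0.481 and 0.118 CPM in vcaf and 12.3, 17.4 and 7.74 CPM in icaf. Adamts19 had 1.73, 3.00 and 0.638 CPM in m2cafpos and 6.07, 5.69 and 1.29 CPM in m2cafneg. The 3 icaf libraries were again the highest and those of vcaf the lowest. Adamts19 was higher in icaf (log2 fold change 1.87 ± 0.38 (SE), limma adjusted p = 0.00329), which ended with the DESeq2 test (adjusted p = 0.0573), and lower in vcaf (log2 fold change -2.20 ± 0.36 (SE), limma adjusted p = 0.000234). With the mouse as a block Adamts19 was also lower in m2cafpos than in m2cafneg (limma adjusted p = 0.0276, against 0.167 without). Adamts17 averaged 7.99 ± 0.253 CPM in vcaf, 1.37 ± 0.598 CPM in icaf, 7.70 ± 2.48 CPM in m2cafpos, and 2.93 ± 1.23 CPM in m2cafneg. Adamts17 was higher in vcaf than in the mean of the others (log2 fold change 1.09 ± 0.22 (SE), limma adjusted p = 0.00109). The vcaf libraries overlapped those of m2cafpos, however, and vcaf did not differ from m2cafpos past the test (limma adjusted p = 0.78). It was lower in icaf (log2 fold change -1.29 ± 0.24 (SE), limma adjusted p = 0.00166) and higher in m2cafpos than in m2cafneg (log2 fold change 1.15 ± 0.28 (SE), limma adjusted p = 0.0116). Adamts18 averaged 0.724 ± 0.494 CPM in vcaf, 0.635 ± 0.524 CPM in icaf, 0.818 ± 0.0608 CPM in m2cafpos, and 1.97 ± 0.828 CPM in m2cafneg and passed no main comparison, and Adamts13, the protease of von Willebrand factor, reached at most 0.444 CPM.

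Of the ADAMTS-like genes, 3 of 5 were highest in icaf against each other population (4.74% of all genes). All 5 were lower in vcaf than in the mean of the others (14.2% of all genes), though not each against every population. Adamtsl4, which binds fibrillin and is known from the lens zonule, had 30.2, 26.0 and 28.4 CPM in vcaf and 251, 297 and 243 CPM in icaf. Adamtsl4 had 12.5, 15.6 and 14.99 CPM in m2cafpos and 28.7, 51.2 and 30.7 CPM in m2cafneg. The icaf libraries were apart from the rest (log2 fold change 3.48 ± 0.16 (SE), limma adjusted p = 1.85e-07), and m2cafpos was lower than m2cafneg without overlap (log2 fold change -1.26 ± 0.19 (SE), limma adjusted p = 0.0016). In vcaf Adamtsl4 was lower than in the mean of the others (log2 fold change -0.86 ± 0.15 (SE), limma adjusted p = 0.000386), while its values overlapped m2cafneg. All vcaf libraries lay above those of m2cafpos, and vcaf was higher than m2cafpos (limma adjusted p = 0.000865). Adamtsl3 had 4.40, 1.44 and 3.35 CPM in vcaf and 79.2, 84.0 and 69.5 CPM in icaf. Adamtsl3 had 10.4, 8.75 and 8.11 CPM in m2cafpos and 21.4, 10.3 and 15.5 CPM in m2cafneg. No icaf or vcaf library overlapped another population. Adamtsl3 was higher in icaf (log2 fold change 2.62 ± 0.25 (SE), limma adjusted p = 1.02e-05) and lower in vcaf (log2 fold change -2.60 ± 0.23 (SE), limma adjusted p = 1.60e-06). With the mouse as a block it was also lower in m2cafpos than in m2cafneg (limma adjusted p = 0.0352, against 0.0973 without).

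Adamtsl1 had 14.1, 15.5 and 10.6 CPM in vcaf and 92.7, 139.8 and 92.4 CPM in icaf. Adamtsl1 had 63.2, 45.2 and 61.7 CPM in m2cafpos and 42.5, 34.2 and 26.4 CPM in m2cafneg. Every icaf library lay above and every vcaf library below the m2caf libraries. Adamtsl1 was higher in icaf (log2 fold change 1.27 ± 0.19 (SE), limma adjusted p = 0.000302) and lower in vcaf (log2 fold change -2.07 ± 0.18 (SE), limma adjusted p = 9.61e-07). Its higher level in m2cafpos than in m2cafneg (log2 fold change 0.72 ± 0.21 (SE), limma adjusted p = 0.0296) ended without m2cafpos of mouse 27 or 31 or m2cafneg of mouse 30 or 31 (limma adjusted p = 0.0577 to 0.114) and with no filter on low values (adjusted p = 0.0882). Adamtsl2, which binds fibrillin and latent TGF-beta binding protein, had 11.1, 28.8 and 20.0 CPM in vcaf and 8.49, 26.2 and 21.8 CPM in icaf. Adamtsl2 had 95.5, 146 and 147 CPM in m2cafpos and 73.7, 32.4 and 113 CPM in m2cafneg. It was lower in icaf than in the m2caf populations (log2 fold change -2.34 ± 0.41 (SE), limma adjusted p = 0.00113) and lower in vcaf than in the mean of the others (log2 fold change -1.44 ± 0.39 (SE), limma adjusted p = 0.00584), with vcaf and icaf overlapping. Adamtsl5 had 50.01, 45.7 and 35.5 CPM in vcaf and 66.6, 88.6 and 64.3 CPM in icaf. Adamtsl5 had 98.8, 104 and 87.5 CPM in m2cafpos and 78.8, 73.2 and 69.5 CPM in m2cafneg. Adamtsl5 was lower in vcaf (log2 fold change -0.87 ± 0.12 (SE), limma adjusted p = 6.50e-05), and with the mouse as a block m2cafpos was higher than m2cafneg (limma adjusted p = 0.0254, against 0.0742 without).

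The 4 inhibitors had 3 patterns, each with another population on top. Timp1, a secreted inhibitor of most MMPs, had 72.7, 66.0 and 56.9 CPM in vcaf and 248, 125 and 207 CPM in icaf. Timp1 had 606, 420.3 and 394 CPM in m2cafpos and 263, 107 and 172 CPM in m2cafneg. All m2cafpos libraries lay above the 9 others, and m2cafpos was higher than m2cafneg (log2 fold change 1.45 ± 0.31 (SE), limma adjusted p = 0.0069), than icaf (limma adjusted p = 0.00749) and than vcaf (limma adjusted p = 9.85e-06). Timp1 was lower in vcaf (log2 fold change -1.90 ± 0.25 (SE), limma adjusted p = 4.47e-05). Against the mean of the m2caf populations, icaf did not pass (log2 fold change -0.59 ± 0.27 (SE), limma adjusted p = 0.12), though with the mouse as a block it was lower (adjusted p = 0.0155).

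Timp2, which blocks MMPs and takes part in the activation of pro-MMP2 by Mmp14, had 60.2, 95.9 and 53.7 CPM in vcaf and 495, 838 and 622 CPM in icaf. Timp2 had 175, 219.5 and 199.9 CPM in m2cafpos and 128, 328 and 150.4 CPM in m2cafneg. The icaf libraries were the 3 highest, and Timp2 was higher in icaf (log2 fold change 1.73 ± 0.28 (SE), limma adjusted p = 0.00055) and lower in vcaf (log2 fold change -2.06 ± 0.26 (SE), limma adjusted p = 3.13e-05). Timp3, which is held in the matrix and also blocks ADAM and ADAMTS proteases, had 1233, 858 and 1365 CPM in vcaf and 382, 549 and 319 CPM in icaf. Timp3 had 392, 419 and 338 CPM in m2cafpos and 197, 290.4 and 233 CPM in m2cafneg. The vcaf libraries were the 3 highest (log2 fold change 1.76 ± 0.18 (SE), limma adjusted p = 4.69e-06), and the m2cafneg libraries the 3 lowest. Its higher level in m2cafpos than in m2cafneg (log2 fold change 0.68 ± 0.22 (SE), limma adjusted p = 0.0378) ended without m2cafpos of mouse 27, 30 or 31 or m2cafneg of mouse 27 or 31 (limma adjusted p = 0.0524 to 0.114) and with no filter on low values (adjusted p = 0.114). Timp3 shares 1733 of its 8144 exon bases with Syn3 on the opposite strand, but Syn3 reached no more than 2.20 CPM. Timp4 had 2.30, 3.77 and 1.41 CPM in vcaf and 0.152, 0.943 and 0.297 CPM in icaf. Timp4 had 0.452, 0.148 and 0.273 CPM in m2cafpos and 0.0435, 0.112 and 0.988 CPM in m2cafneg. Its 3 vcaf libraries were the highest. Timp4 was higher in vcaf (log2 fold change 1.32 ± 0.25 (SE), limma adjusted p = 0.000553), at levels far below the other Timp genes, and shares 90 exon bases with Syn2 on the opposite strand.

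**Figure D5:**
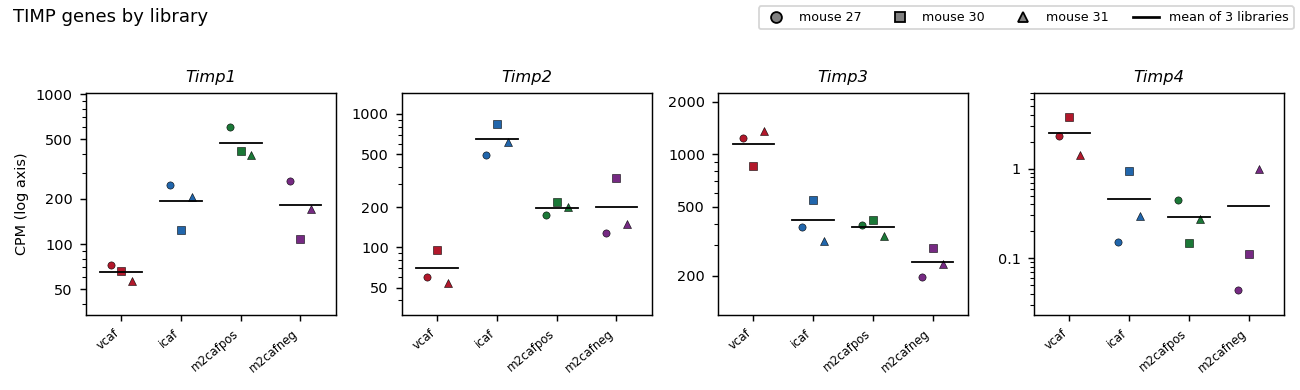
CPM on a log axis (vertical) of Timp1, Timp2, Timp3 and Timp4 in each of the 12 libraries, with vcaf, icaf, m2cafpos and m2cafneg from left to right; symbols mark the mouse and lines the mean of 3 libraries. Timp1 is highest in m2cafpos, Timp2 in icaf, and Timp3 and Timp4 in vcaf.

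Set per kilobase of exon, so that genes can be compared, Timp3 was the most abundant member in vcaf, at 141 ± 32.3 CPM per kb (SD, n = 3), ahead of Adamts1 at 95.2 ± 8.82 and Mmp11 at 94.5 ± 32.1. Mmp2 led in icaf at 750 ± 108 CPM per kb, in m2cafpos at 1263 ± 142 and in m2cafneg at 1234 ± 327, followed in each by Mmp3 at 494 ± 184, 919 ± 140 and 977 ± 100.3. The summed CPM per kb of the Timp genes divided by that of the MMP genes was 0.674 to 1.35 in vcaf, 0.248 to 0.346 in icaf, 0.172 to 0.300 in m2cafpos and 0.0671 to 0.141 in m2cafneg. The vcaf libraries were above and the m2cafneg libraries below all others in this ratio, which is a ratio of RNA, not of active protein. Mmp2 alone made up 18.2% to 24.5% of all MMP CPM in vcaf, 55.0% to 62.3% in icaf, 49.6% to 52.6% in m2cafpos and 49.2% to 52.7% in m2cafneg. Timp3 made up 83.8% to 92.4% of all Timp CPM in vcaf, 27.8% to 36.3% in icaf, 33.4% to 39.6% in m2cafpos and 33.5% to 41.8% in m2cafneg.

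Taken against each of the other 3 populations, 18 of the 43 members tested were highest in a single one, where 28.2% of all genes were. In vcaf these were Adamts4, Adamts9, Mmp15, Mmp28, Timp3 and Timp4 (6, where 21.4% of all genes were highest in vcaf). In icaf they were Adamts5, Adamts19, Adamtsl1, Adamtsl3, Adamtsl4 and Timp2 (6, against 4.74% of all genes). In m2cafpos they were Adamts6, Mmp8, Mmp9, Mmp13 and Timp1 (5, against 1.71%), and in m2cafneg Adamts8 (1, against 0.408%). A single population was lowest for 25 members (16.2% of all genes). As a lowest population, vcaf had 18 members (7.17% of all genes), icaf had 5, namely Adamts4, Adamts7, Adamts9, Mmp15 and Mmp17 (3.83%), m2cafpos had Adamtsl4 (5.09%) and m2cafneg had Timp3 (0.155%). With the mouse as a block the 18 highest became 24, and none of the 18 was lost. Adamts1 was then also highest in vcaf and Mmp27 in icaf. Adamts2, Adamts7, Adamtsl5 and Mmp23 were then highest in m2cafpos. The largest limma adjusted p of the 3 pairs was 0.0223 to 0.0390 for these 6 members. With the same block 28 members were lowest in a single population, the added ones being Mmp16 in vcaf and Adamts17 and Mmp11 in icaf (largest limma adjusted p = 0.0192 to 0.0386). Within a population, the highest library of a member with at least 10 CPM was 1.52 times the lowest in vcaf, 1.51 in icaf, 1.37 in m2cafpos and 1.67 in m2cafneg at the median.

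Other genes of the system were taken from lists. Of 18 activators, inhibitors and surface partners tested, 4 were higher and 11 lower in vcaf than in the mean of the others, with a median log2 fold change of -1.29 against 0.38 for all genes (1 higher and 12 lower with median-of-ratios scaling). Of all genes 53.3% were higher and 14.2% lower there. Those with the smallest adjusted p were Thbs2 (log2 fold change -3.16 ± 0.14 (SE), limma adjusted p = 2.51e-09), Pcsk5 (log2 fold change -3.86 ± 0.20 (SE), limma adjusted p = 8.89e-09) and Lrp1 (log2 fold change -2.29 ± 0.12 (SE), limma adjusted p = 1.54e-08), all lower. Thbs2 is a matricellular protein that clears Mmp2 through the receptor Lrp1, and Pcsk5 is a furin-like convertase. In icaf against the m2caf populations 4 were higher and 5 lower (12.1% and 14.2% of all genes), with a median of -0.08 against -0.01 for all genes. They were led by Sdc1 (log2 fold change -2.35 ± 0.12 (SE), limma adjusted p = 2.23e-07), Spock3 (log2 fold change 2.83 ± 0.22 (SE), limma adjusted p = 2.34e-06) and the convertase Pcsk6 (log2 fold change 3.94 ± 0.36 (SE), limma adjusted p = 7.72e-06). In m2cafpos against m2cafneg 4 were higher and 3 lower (3.51% and 22.6% of all genes), with a median of 0.01 against -0.23, and 5 and 1 with median-of-ratios scaling. Among them were Thbs2 (log2 fold change 0.99 ± 0.17 (SE), limma adjusted p = 0.00272) and Pcsk5 (log2 fold change 0.90 ± 0.24 (SE), limma adjusted p = 0.0189), which were higher, and Spock2 (log2 fold change -2.16 ± 0.39 (SE), limma adjusted p = 0.00365). The call of Pcsk5 in m2cafpos ended without m2cafpos of mouse 30 or 31 or m2cafneg of mouse 30 (limma adjusted p = 0.0507 to 0.0591) and with no filter on low values (adjusted p = 0.0652). The count of 4 fell to 1 or 2 without m2cafpos of mouse 27 or 31 or m2cafneg of mouse 30 or 31, and that of 3 fell to 1 without m2cafpos of mouse 31 or m2cafneg of mouse 27.

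Of 11 membrane-anchored ADAM genes tested, 2 were higher and 6 lower in vcaf, where 53.3% and 14.2% of all genes were, and 1 and 7 with median-of-ratios scaling. In icaf 3 were higher and 3 lower (12.1% and 14.2% of all genes), with 1 lower without icaf of mouse 27 or 30. In m2cafpos against m2cafneg 3 were higher and 0 lower (3.51% and 22.6%), and 5 and 0 with median-of-ratios scaling. The list's median log2 fold changes were -0.53, 0.14 and -0.03 in these comparisons, against 0.38, -0.01 and -0.23 for all genes. The 3 higher in m2cafpos were Adam12 (log2 fold change 1.91 ± 0.31 (SE), limma adjusted p = 0.00234), Adam19 (log2 fold change 0.87 ± 0.15 (SE), limma adjusted p = 0.00282) and Adam23 (log2 fold change 1.17 ± 0.33 (SE), limma adjusted p = 0.023), of which Adam23 no longer passed without m2cafpos of mouse 27, 30 or 31 or m2cafneg of mouse 27 or 31 (limma adjusted p = 0.0507 to 0.0908) or with no filter on low values (adjusted p = 0.0761). In vcaf the smallest adjusted p belonged to Adam33, at 2.57 ± 0.413 CPM in vcaf, 70.4 ± 14.3 CPM in icaf, 95.1 ± 16.8 CPM in m2cafpos, and 65.5 ± 22.4 CPM in m2cafneg. Of 6 astacin proteinases and enhancers of procollagen processing, 0 were higher and 5 lower in vcaf, where 53.3% and 14.2% of all genes were. In icaf 5 were higher and 1 lower (12.1% and 14.2%), with 3 higher without icaf of mouse 27 or 31. The list's medians were -0.97 in vcaf and 0.69 in icaf. Pcolce2, an enhancer of procollagen C-proteinases, averaged 1.49 ± 0.237 CPM in vcaf, 568 ± 40.1 CPM in icaf, 13.6 ± 5.82 CPM in m2cafpos, and 75.1 ± 65.3 CPM in m2cafneg and was higher in icaf than in the m2caf populations (log2 fold change 4.30 ± 0.39 (SE), limma adjusted p = 7.89e-06).

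Of 17 matrix substrates and partners tested, 3 were higher and 13 lower in vcaf (53.3% and 14.2% of all genes), with a median log2 fold change of -2.54 against 0.38 for all genes. In icaf against the m2caf populations 3 were higher and 10 lower (12.1% and 14.2%), with a median of -0.87 against -0.01. In m2cafpos against m2cafneg 10 were higher and 3 lower (3.51% and 22.6%), with a median of 0.83 against -0.23, and 10 and 0 with median-of-ratios scaling. Without m2cafpos of mouse 27 or m2cafneg of mouse 31 the 10 became 6, and without m2cafpos of mouse 27 or m2cafneg of mouse 30 the 3 became 1. In m2cafpos the smallest adjusted p belonged to elastin, Eln (log2 fold change 1.57 ± 0.21 (SE), limma adjusted p = 0.00121), fibrillin 1, Fbn1 (log2 fold change 1.05 ± 0.18 (SE), limma adjusted p = 0.00284), and Col1a2 (log2 fold change 1.01 ± 0.18 (SE), limma adjusted p = 0.00303), all higher. In icaf, Fn1, fibronectin, was higher (log2 fold change 1.47 ± 0.17 (SE), limma adjusted p = 6.19e-05) and Postn, periostin, lower (log2 fold change -1.85 ± 0.21 (SE), limma adjusted p = 4.51e-05). Of 12 transcription factors of the AP-1, ETS and Runx families, 7 were higher and 0 lower in vcaf, with a median log2 fold change of 0.61 against 0.38 for all genes. Of all genes 53.3% were higher there, so the share of the list that was higher lies near that of all genes. In icaf 8 were lower (14.2% of all genes, median -0.75 against -0.01), and 1, Fosl1, named after its values were seen, was higher at the threshold (log2 fold change 0.93 ± 0.31 (SE), limma adjusted p = 0.0417). It no longer passed without any 1 of 9 of the 12 libraries, all but icaf of mouse 31, m2cafpos of mouse 30 and vcaf of mouse 31. The lower ones were led by Runx2 (log2 fold change -2.04 ± 0.24 (SE), limma adjusted p = 5.69e-05). In m2cafpos against m2cafneg 0 were higher and 7 lower (3.51% and 22.6% of all genes, median -0.76 against -0.23), led by Jun (log2 fold change -1.06 ± 0.17 (SE), limma adjusted p = 0.00224), Fosb (log2 fold change -0.92 ± 0.15 (SE), limma adjusted p = 0.00228) and Junb (log2 fold change -1.47 ± 0.24 (SE), limma adjusted p = 0.00261). Jun averaged 2459 ± 229.6 CPM in vcaf, 1531 ± 167 CPM in icaf, 1647 ± 30.0 CPM in m2cafpos, and 3492 ± 777 CPM in m2cafneg. Under median-of-ratios scaling the counts were 4 higher and 0 lower in vcaf, and 0 higher and 5 lower in m2cafpos.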

How the data were processed

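Bulk RNA-seq was measured in 12 libraries, 4 sorted populations from 3 mice, and the title 27_vacf was read as vcaf of mouse 27. The authors deposited CPM per gene. Per the submitters' processing notes, bcl2fastq, DRAGEN and mm10 were used. The sources used here do not give versions, annotation, counting rule or strand handling, so values of overlapping genes and close paralogs are less certain. The table had 55774 lines, 287 of them repeats with identical values. All values (100%) were whole multiples of 1 read within 0.001 reads, which gave totals of 43898839 to 55363203 reads and 0.0181 to 0.0228 CPM per read; 3 reads, 0.0542 to 0.0683 CPM, is the limit that a count of 0 allows, for counting error only.

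The 15456 genes reaching 1 CPM in 3 or more libraries were tested two-sided on the log2(CPM + 1) scale (R 4.3.3, limma 3.58.1: lmFit, contrasts and eBayes with trend, 8 residual and 4.29 prior degrees of freedom), with Benjamini-Hochberg adjustment over these genes in each comparison. Adding 1 CPM understates fold changes of low genes. The 3 main comparisons and the 6 pairs of populations share libraries and are not independent. Alternatives were a pseudocount of 0.1 CPM, no filter (36199 genes), median-of-ratios scaling, the recovered reads in edgeR 4.0.16 (quasi-likelihood, TMM) and DESeq2 1.42.0, the mouse as a block, and each library left out. The edgeR test called 7248 genes in vcaf against the others, 3908 in icaf against the m2caf populations and 2088 in m2cafpos against m2cafneg. The fits were tested on simulated data.

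Mouse numbers recur in all populations and the labels state 3 mice. Deviations of libraries from their population means correlated across genes with a median r of 0.293 (0.0843 to 0.452) for the 18 pairs of the same mouse and -0.149 (-0.363 to 0.0746) for the 36 pairs of different mice. Deviations cancel within a population, so the negative median largely follows from the positive one and is not separate evidence. From the labels and the pairs of the same mouse, the numbers were taken as animals. The block was not part of the main fit, and its value is given where it changes a call of a member in the 3 main comparisons or its place as highest or lowest in a single population.

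Exon lengths and positions came from GENCODE M21 (GRCm38), which held 99.5% of gene identifiers, and promoter windows from RefSeq (GRCm38.p6). Members, gene lists and tests were chosen with earlier results of these data known. Each library is given for the Timp genes and for members with a mean of at least 10 CPM in a population, means for other tested members, and the highest value for the 7 below the filter; from each other list, the counts and members among the 3 with the smallest adjusted p. Tables and figures were made with Python 3.11.15, pandas 2.3.3 and matplotlib 3.10.9.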

Additional observations from a re-analysis of the deposited data

How the results depend on the processing

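Each result was recomputed under 18 alternatives, 12 of which left out 1 library. Of the 78 called differences of members, 58 passed in every alternative (33 of 37 in vcaf against the others, 18 of 26 in icaf against the m2caf populations, and 7 of 15 in m2cafpos against m2cafneg), none changed direction, and the other 20 are named in the report with the settings that ended them. Members higher in m2cafpos than in m2cafneg numbered 12 in the main fit and 6 to 11 with 1 library left out. Members lower there numbered 3, but 1 with edgeR, 7 with the replicate block, and 2 to 6 with 1 library left out. Counts in vcaf and icaf stayed within 1.5 times, at 8 to 10 higher and 25 to 30 lower in vcaf, and 7 to 9 higher and 13 to 19 lower in icaf. Members highest in a single population numbered 18, and 13 to 24 over the alternatives, 13 of the 18 being kept with a pseudocount of 0.1 CPM and 12 with edgeR. Why these counts moved was not tested, except that leaving out a library lowers the number of samples. The mouse as a block ended no call of the 78. Depth allowed 0.0181 to 0.0228 CPM per read, so members with 0 reads are limited only to under 0.0683 CPM.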
